A study of Caenorhabditis elegans with 10 samples.

Results

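The comparison described here is that of GMC101 with CL2122 after 8 h at 25°C, over every gene. The 8 h samples are 4 of the 10 in the series, 2 labelled for each strain, and the 8 h table lists 19177 genes out of 22554 listed at either time. GMC101 is a Caenorhabditis elegans line that carries human Aβ under the unc-54 promoter, which drives expression in body wall muscle, together with a GFP marker under the intestinal mtl-2 promoter. CL2122 carries the empty unc-54 vector and the same GFP marker. Both strains were grown to young adults at a lower temperature and then shifted, according to the study's methods, whereas the labels give the stage as L1. The yolk protein genes, which adult hermaphrodites express in the intestine, took 4.42% of the reads in GMC101 and 5.39% in CL2122. Each genotype is a single transgenic line, so Aβ and any other difference between the lines cannot be told apart. The transgene's own transcript was not analysed here.

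The table holds 1 value per gene and strain, and how the labelled samples were combined is not given in the sources used here. No spread between replicates could therefore be computed, and no p-value is given at any point. Each value is a read count normalized to a common library size, from 20533034 reads on genes in GMC101 and 22520669 in CL2122. A gene was called higher or lower in GMC101 when the strains differed by over 2-fold and their mean was at least 50 normalized counts. Each log2 ratio, GMC101 over CL2122, comes with a 95% interval from the exact Clopper-Pearson limits of the share of its reads that GMC101 supplied. It covers counting error only, and variation between worm populations would widen it.

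Aβ is a peptide prone to aggregation, and muscle expression of it paralyses GMC101 worms at the higher temperature. In C. elegans, misfolded protein in the cytosol releases the transcription factor HSF-1, whose classical targets are the hsp-16 small heat shock proteins and the inducible members of the HSP70 family. The worm's body is enclosed in a collagen cuticle made by the epidermis, and its collagen genes are switched on in waves with each moult.

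The strains were close for most genes at 8 h. Of the 11593 genes at the minimum level, 71.4% differed by under 1.2-fold and 90.3% by under 1.5-fold, with a median log2 ratio of 0.0058. In GMC101, 91 genes (0.785%) were called higher and 279 (2.41%) lower. The differences were mostly modest, since 64 of the higher and 179 of the lower genes were under 3-fold, and 17 and 46 were over 4-fold. The counting interval lay wholly past 2-fold for 41 of the higher and 146 of the lower genes. Calls were commonest among genes of low level, with 42 higher and 106 lower of 1643 genes with a mean of 50 to 100 normalized counts, against 2 higher and 4 lower of 714 genes at 5000 or more. The genes just past the rule had log2 ratios of 1.003 and -1.0005, and those just inside it 0.9992 and -0.9974.

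**Figure D1:**
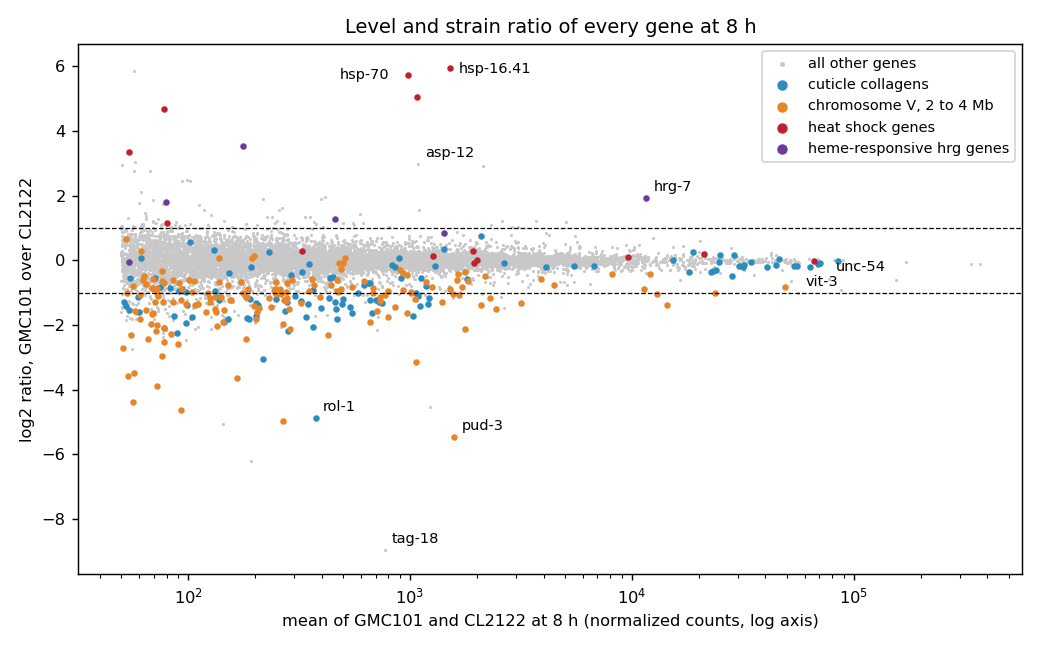
Each point is 1 of 11593 genes, with the mean of GMC101 and CL2122 at 8 h in normalized counts on a log axis and the log2 ratio of GMC101 over CL2122 on the vertical axis; dashed lines mark 2-fold. The inducible heat shock genes and hrg-7 stand above the cloud, the cuticle collagens of low and middling level and the chromosome V genes below it, and tag-18, with 0 reads in GMC101, is drawn at the ratio given by 3 reads.

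Inducible heat shock genes were among those with the largest ratios in favour of GMC101, together with the lectin gene clec-70 given further on. The small heat shock protein gene hsp-16.41 had 2977 normalized counts in GMC101 against 48.3 in CL2122, a log2 ratio of 5.95 (5.54 to 6.38). Its neighbour hsp-16.2 had 2088 in GMC101 and 62.8 in CL2122, a log2 ratio of 5.06 (4.70 to 5.43). These genes lie head to head on chromosome V, hsp-16.2 on the minus strand from 1804334 to 1804971 and hsp-16.41 on the plus strand from 1805178 to 1805875, with 206 bases between them. The inducible HSP70 gene hsp-70 (chromosome I, 9320325 to 9322534) had 1934 in GMC101 and 36.7 in CL2122, a log2 ratio of 5.72 (5.26 to 6.22).

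The second hsp-16 cluster, from 9087293 to 9090604 on chromosome V, had far lower counts but was higher in GMC101 at each of its genes. There hsp-16.49 had 150 normalized counts in GMC101 against 5.79 in CL2122, a log2 ratio of 4.70 (3.54 to 6.16). The other 3 genes of that cluster fell below the minimum level. Of these, hsp-16.1 had 92.1 in GMC101 and 6.76 in CL2122, hsp-16.48 had 30.0 in GMC101 and 5.79 in CL2122, and hsp-16.11 had 52 reads in GMC101 and 2 in CL2122. Their counting intervals began at log2 ratios of 2.67, 1.08 and 2.87. The genes of this cluster are near-identical in pairs, hsp-16.1 with hsp-16.11 and hsp-16.48 with hsp-16.49. How reads matching both copies were counted is not given, so low counts need not mean low use. How the reads divide between the copies is also uncertain. The same holds for the paired HSP70 genes F44E5.4, with 92 reads in GMC101 and 2 in CL2122, and F44E5.5, with 98.3 normalized counts in GMC101 against 9.66 in CL2122, a log2 ratio of 3.35 (2.41 to 4.45).

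The chaperones that cells use without stress were nearly level between the strains. The constitutive HSP70 gene hsp-1 had a log2 ratio of -0.03, with 65676 normalized counts in GMC101 against 66871 in CL2122, and hsp-90 a log2 ratio of 0.04. The gene for the transcription factor itself, hsf-1, was at 1997 in GMC101 and 1977 in CL2122. The disaggregase partner hsp-110 had a log2 ratio of 0.09 and the HSP40 gene dnj-13 one of 0.48, both under the fold. Among 18 HSP90 and cochaperone genes the single call was unc-45 (5.56% higher beside 0.785% of all genes). This gene encodes the chaperone that folds myosin heads in muscle. It had 3636 in GMC101 and 1572 in CL2122, a log2 ratio of 1.21 (1.12 to 1.30). Of 6 other small heat shock genes at the minimum level, hsp-12.3 alone was called (16.7% beside 0.785%). It had 111 in GMC101 and 49.3 in CL2122. None of the 14 chaperonin and prefoldin genes was called, and their log2 ratios ran from -0.07 to 0.19.

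**Figure D2:**
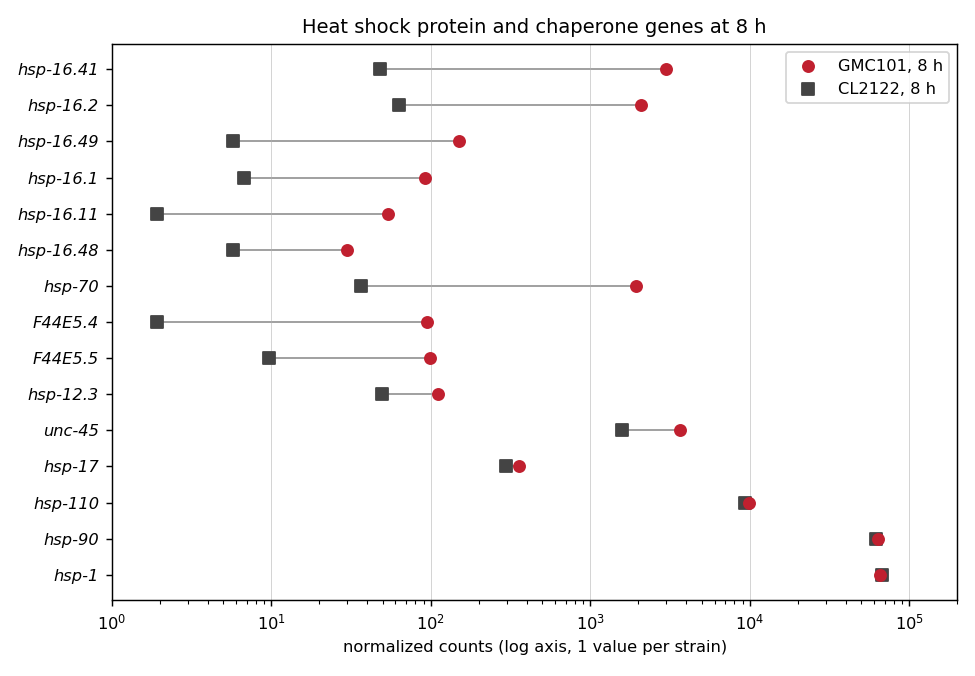
Normalized counts of 15 heat shock protein and chaperone genes at 8 h on a log axis, with a circle for GMC101 and a square for CL2122, 1 value per strain. The hsp-16 genes, hsp-70, F44E5.4 and F44E5.5 lie far to the right in GMC101, while both symbols of hsp-1, hsp-90 and hsp-110 nearly coincide.

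Stress genes of other compartments mostly lay close to 0. In the endoplasmic reticulum stress list 7 of 29 genes were lower (24.1% beside 2.41% of all genes) and none higher, with a median log2 ratio of 0.0024. All 7 were abu genes, described below. The 21 genes other than the abu genes, set apart after the values were seen, so that the split itself leaves no call among them, had a median of 0.08, beside 0.0058 over all genes. The highest was hsp-4, the stress-inducible BiP of that compartment, with 10931 normalized counts in GMC101 against 7886 in CL2122, a log2 ratio of 0.47 (0.43 to 0.51). The calreticulin gene crt-1 had 31541 in GMC101 and 24431 in CL2122, one of the 8 largest gains in counts. The 11 genes of the mitochondrial stress list had a median of -0.01 and no call. In the list of oxidative and electrophile stress genes, 2 of 40 were lower, beside 2.41% of all genes. They were gst-10, which lies in the chromosome V stretch described below, and sod-3, the single lower gene of the 38 outside it. The mitochondrial superoxide dismutase gene sod-3 had 26.9 in GMC101 and 81.1 in CL2122, a log2 ratio of -1.59 (-2.29 to -0.94).

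Much of the machinery that degrades protein was also close between strains, the cathepsin genes less so. No member of the proteasome (33 genes), V-ATPase (21) or autophagy (27) lists was called, and their median log2 ratios were -0.05, 0.04 and -0.03. Among the digestive and lysosomal proteases, 3 of 19 cathepsin genes were higher (15.8% beside 0.785% of all genes) and none lower. Their median log2 ratio was 0.19, and 7 of the 19 lay below 0, the lowest being asp-8 at -0.87. The aspartyl protease gene asp-12 had 1924 normalized counts in GMC101 against 246 in CL2122, a log2 ratio of 2.97 (2.78 to 3.16). The cathepsin B-like genes cpr-8 and cpr-1 had log2 ratios of 1.11 and 1.03. For cpr-1 that is 4117 in GMC101 and 2014 in CL2122. Further members stood above 1.5-fold without reaching the rule, among them asp-6, with 24471 in GMC101 and 16246 in CL2122, and cpr-5, with 15371 in GMC101 and 9524 in CL2122. The paper lists cpr-5, hsp-4 and the V-ATPase gene vha-12 as over 2-fold higher at 8 h, and atg-10 as over 2-fold lower. Here the log2 ratios of cpr-5 and hsp-4 were 0.69 and 0.47. No listed V-ATPase gene exceeded 0.18, and no listed autophagy gene at the minimum level was below -0.20. The reason for the difference was not tested.

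The heme-responsive hrg genes, a list put together after the values were seen, included the largest gain in counts of any gene. Worms cannot make heme, and these genes serve to import it and to pass it between tissues. The gene hrg-7, which encodes a secreted aspartic protease homologue that signals heme status, had 18340 normalized counts in GMC101 against 4837 in CL2122, a log2 ratio of 1.92 (1.88 to 1.97). The gene hrg-3 for the intestinal heme chaperone had 324 in GMC101 and 28.01 in CL2122, a log2 ratio of 3.53 (2.98 to 4.13). Also higher were hrg-2, with 124 in GMC101 and 35.7 in CL2122, and the heme importer gene hrg-4, with 651 in GMC101 and 267 in CL2122. The transporter gene hrg-1 had a log2 ratio of 0.85 and hrg-6 one of -0.06. At 24 h, hrg-1, hrg-2, hrg-3, hrg-4 and hrg-7 were each over 2-fold higher in GMC101.

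Several further genes were higher by large ratios. Of 40 listed nematode-specific peptide genes, which encode small proteins with no assigned role, 15 reached the minimum level, all but nspe-1 of group C. Of these 15, 6 were higher, beside 0.785% of all genes, and none lower. Their median log2 ratio was 0.77, but 0.12 over all 40 with no minimum level. The group A gene nspa-3, below the minimum level, went the other way, with 0 reads in GMC101 and 69 in CL2122. The members nspc-18 and nspc-16 had log2 ratios of 2.49 and 2.45, from 168 and 158 normalized counts in GMC101 against 30.0 and 29.0 in CL2122. These genes are close copies of each other, so their separate values are uncertain. The uncharacterized gene Y94H6A.10 had 3771 in GMC101 and 501 in CL2122, a log2 ratio of 2.91 (2.78 to 3.05). The omega-class glutathione transferase gene gsto-1 had 658 in GMC101 and 171 in CL2122, and the enoyl-CoA hydratase gene ech-9 had 102 in GMC101 and 12.6 in CL2122. The lectin gene clec-70 had 108 reads in GMC101 and 2 in CL2122, a log2 ratio of 5.86 with a counting interval of 3.97 to 8.92.

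Higher genes were also unevenly spread along the genome. Chromosome V held 32 of the 91, which is 1.54% of its 2082 genes at the minimum level, beside 0.785% of all genes. From 16400001 to 17700000 on its right arm, limits set after the values were seen, 14 of 63 genes were higher, 22.2% beside 0.785% of all genes, and 3 were lower. They included the protein kinase D gene dkf-2, with 3136 normalized counts in GMC101 against 1478 in CL2122, the collagen-modifying proline hydroxylase gene phy-3, with 344.7 in GMC101 and 135 in CL2122, and the adjacent lectin genes clec-26 and clec-36, with log2 ratios of 1.72 and 1.74. The uncharacterized gene T05E12.6 had 7006 in GMC101 and 3052 in CL2122.

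The cuticle collagens made up a large group of the lower genes. Of 114 collagen genes at the minimum level, 52 were lower in GMC101 (45.6% beside 2.41% of all genes), none was higher, and 102 had a log2 ratio below 0. The median log2 ratio was -0.92. The strongest was rol-1, whose mutants roll, with 24.9 normalized counts in GMC101 against 727 in CL2122, a log2 ratio of -4.87 (-5.52 to -4.29). Next was col-49, with 46.6 in GMC101 and 389 in CL2122. The collagens that build the annular furrows of the cuticle were among them, dpy-7 with 27.95 in GMC101 and 80.2 in CL2122, dpy-8 with 30.0 in GMC101 and 73.4 in CL2122, and dpy-2 with 37.3 in GMC101 and 82.1 in CL2122. The body-shape collagens dpy-13, dpy-5, rol-6 and sqt-1 had log2 ratios of -1.32, -1.23, -1.22 and -1.20.

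The difference was graded by level, on counts not corrected for gene length. Over all genes the share lower also fell with level, from 6.45% at a mean of 50 to 100 to 0.56% at 5000 or more. The median log2 ratios of all genes at those levels were 0.0089 and -0.0087. Of 59 collagens with a mean of 50 to 500 normalized counts, 38 were lower, with a median log2 ratio of -1.28. Of 30 with a mean of 500 to 5000, 14 were lower, with a median of -0.90. None of the 25 collagens above that was called, and their median was -0.16. The adult-specific collagen col-19 was among these, at 46337 in GMC101 and 45377 in CL2122, a log2 ratio of 0.03 (0.01 to 0.05). So were col-124, with a log2 ratio of -0.01, and col-20, with one of -0.08. All collagens together took 4.21% of the reads in GMC101 and 4.57% in CL2122.

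Other genes of cuticle making were lower alongside. In the list of hedgehog-related and moulting genes, 10 of 51 were lower (19.6% beside 2.41% of all genes) and none higher, with a median log2 ratio of -0.33. They included mlt-11, a protease inhibitor homologue needed for moulting, with 47.6 normalized counts in GMC101 against 207 in CL2122, mlt-8, with 67.3 in GMC101 and 224 in CL2122, and the hedgehog-related genes grl-27 and wrt-10, with log2 ratios of -2.94 and -1.60. Of the 10, grl-27 alone lies in the chromosome V stretch described below. The fibrillin homologue fbn-1 and the lipocalin gene lpr-3, components of the precuticle matrix, had log2 ratios of -1.0034 and -1.32. Of 8 abu genes, named for activation when the unfolded protein response is blocked, 7 were lower (87.5% beside 2.41%), with a median of -1.78. This split of the endoplasmic reticulum list was made after the values were seen. Lowest was abu-7, with 20.7 in GMC101 and 111 in CL2122. Of 8 cuticlin genes, 2 were lower (25% beside 2.41% of all genes) and 2 lay above 0, with a median of -0.15. The lower cut-2 had 182 in GMC101 and 447 in CL2122.

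**Figure D3:**
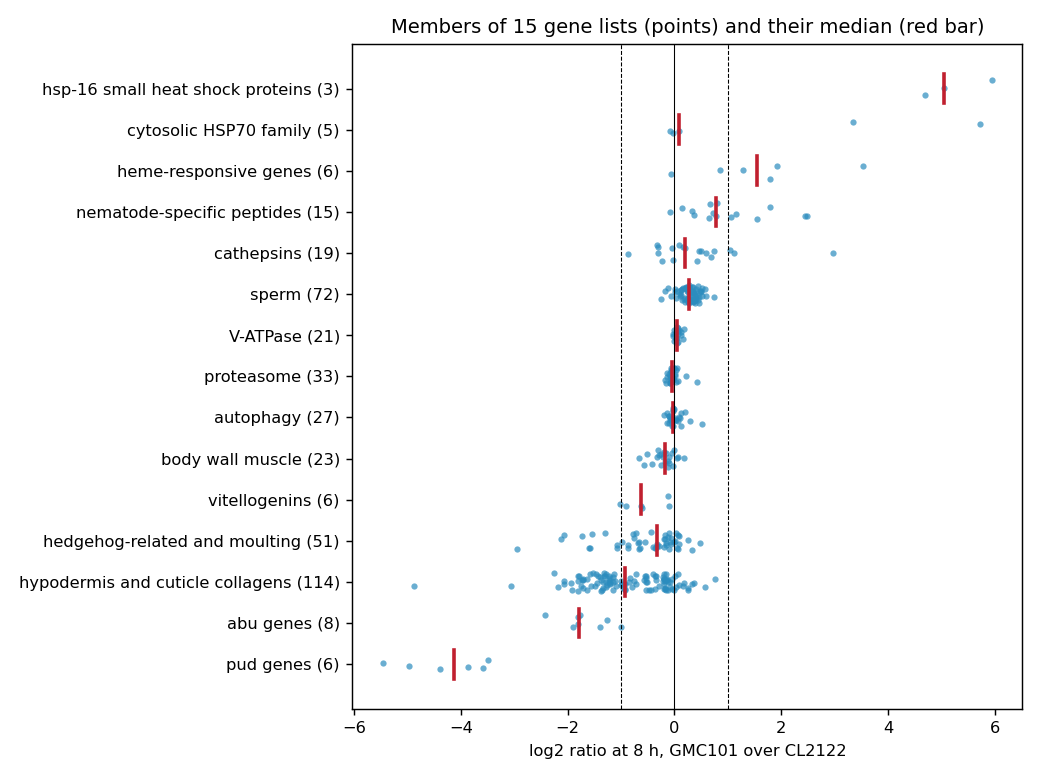
Log2 ratios at 8 h of the members of 15 gene lists (blue points, 1 per gene at the minimum level, number in brackets), with the list median as a red bar and 2-fold as dashed lines. Proteasome, V-ATPase and autophagy genes lie close to 0, the hsp-16 genes lie above 4, and the collagen, abu and pud lists spread to the left.

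A larger group of lower genes shared a chromosomal position. Between 2 and 4 Mb on the left arm of chromosome V (2000001 to 4000000), 162 genes were at the minimum level. Of these, 91 were lower (56.2% beside 2.41% of all genes), none was higher and 156 had a log2 ratio below 0. The median log2 ratio there was -1.05, with a middle range (25th to 75th percentile) of -1.53 to -0.75. The other 1920 genes of the chromosome had a median of -0.00058, and no other 1 Mb bin with at least 20 genes had a median outside -0.105 to 0.214. Without this stretch, 188 genes of 11431 (1.64%) were lower and 91 (0.796%) higher.

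The change at the edges of the stretch was abrupt. On its left, from 1700001 to 2100000, the median log2 ratio of 32 genes was 0.05. From 2100001 to 4100000, limits redrawn after the values were seen, it was -1.06 over 159 genes, of which 157 were below 0. On its right, from 4100001 to 4500000, the median of 37 genes was 0.07. The size of the difference varied among the 162 genes of the stretch, which cover unrelated functions. Log2 ratios were from -1.5 to -0.5 for 100 of them, below -1.5 for 43 and above -0.5 for 19. The lipid droplet gene ldp-1 had 7988 normalized counts in GMC101 against 14800 in CL2122, unc-132 had 1408 in GMC101 and 3184 in CL2122, and the predicted folate transporter gene folt-2 had 8047 in GMC101 and 20810 in CL2122.

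At the low end, 23 genes of the stretch had log2 ratios below -2. The 6 pud genes, named for their proteins' abundance in daf-2 mutants, formed a compact cluster from 2322038 to 2330930 and were all lower, with log2 ratios from -5.46 to -3.48. Of these, pud-3 had 70.4 normalized counts in GMC101 against 3097 in CL2122, and pud-4 had 16.6 in GMC101 and 518 in CL2122. These genes overlap or are near-identical in part, so their separate values are uncertain. The infection response gene irg-1 had 7.25 in GMC101 and 178 in CL2122, a log2 ratio of -4.62 (-5.95 to -3.54). The methyltransferase gene comt-3, near the left edge, had 218 in GMC101 and 1908 in CL2122.

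**Figure D4:**
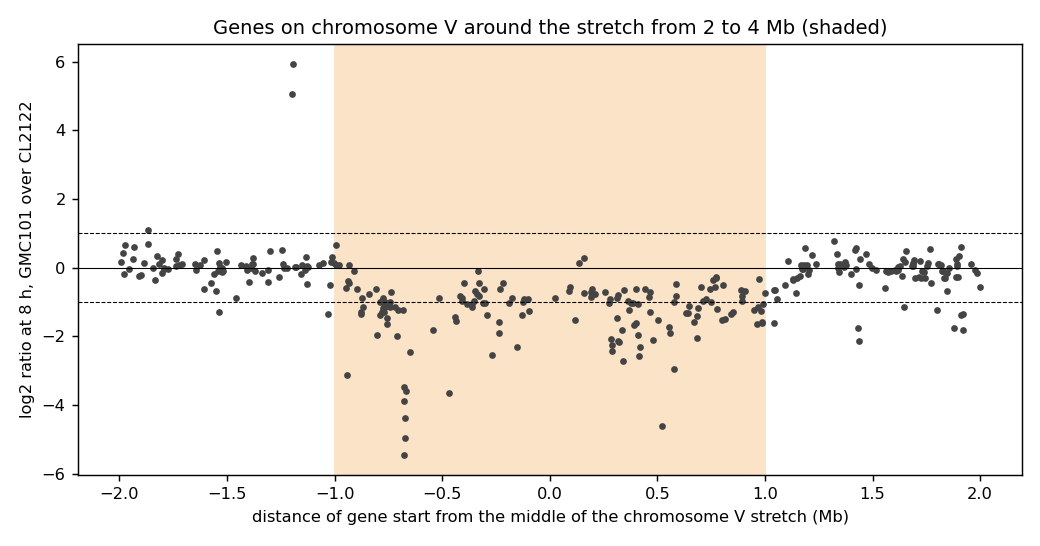
Log2 ratio at 8 h of each gene at the minimum level on chromosome V (vertical axis) against the distance of its start from the middle of the stretch in Mb, with the stretch shaded and 2-fold dashed. Nearly all points in the shaded part lie below 0, 156 of 162, and the points on both sides scatter around 0, apart from hsp-16.2 and hsp-16.41 at the upper left.

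In several gene families most lower members lay in this stretch, where 56.2% of all genes were lower. Of 130 nuclear hormone receptor genes 9 were lower (6.92% beside 2.41% of all genes), all among the 17 in the stretch. Of 88 cytochrome P450 and UDP-glucuronosyltransferase genes 14 were lower (15.9%), 12 of them among the 14 in the stretch. Of 74 neuropeptide genes 4 were lower (5.41%), and these were the 4 in the stretch. Outside it, no nuclear hormone receptor gene was called either way. The detoxification genes ugt-64, with 1262 normalized counts in GMC101 against 3602 in CL2122, and cyp-34A8, with 473 in GMC101 and 1468 in CL2122, are examples. The neuropeptide-like genes nlp-27, nlp-28, nlp-29 and nlp-31, some of which encode epidermal antimicrobial peptides, had log2 ratios from -1.61 to -1.06. Lysozyme genes went both ways: lys-7, in the stretch, had 665 in GMC101 and 2882 in CL2122, and lys-4, on chromosome IV, had 3863 in GMC101 and 1890 in CL2122. Of 71 C-type lectin genes, 6 were higher (8.45% beside 0.785% of all genes) and 4 lower (5.63% beside 2.41%), 2 of the lower ones in the stretch.

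Outside that stretch, a few single genes were lower by far larger ratios than their surroundings. The gene tag-18 (chromosome X, 3731894 to 3733457) had 0 reads in GMC101 and 1542 normalized counts in CL2122, at least 497-fold lower against a floor of 3 reads. The 95% counting bound, a log2 ratio of -8.66, allows a somewhat smaller difference. The uncharacterized genes B0393.8, with 5.18 in GMC101 and 381 in CL2122, and ZC204.12, with 8.28 in GMC101 and 278 in CL2122, had log2 ratios of -6.20 and -5.07. F28H7.3 had 102 in GMC101 and 2360 in CL2122, while its neighbour F28H7.2 had 89.02 in GMC101 and 11.6 in CL2122. These neighbours lie on opposite strands and their annotated spans do not overlap.

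Apart from the cuticle collagens described above, the medians of the tissue marker lists shifted by small amounts. The part of such shifts in the results above was not tested. The intestine list had a median log2 ratio of -0.07 over 30 genes. Of these, 2 were lower (6.67% beside 2.41% of all genes) and none higher. The pharyngeal muscle list had a median of -0.02 over 51 genes, with 2 lower (3.92% beside 2.41%) and none higher. Body wall muscle genes were slightly lower in GMC101, 20 of 23 below 0 with a median log2 ratio of -0.17 and none called. The myosin heavy chain gene unc-54 had 62227 normalized counts in GMC101 against 91957 in CL2122, a log2 ratio of -0.56 (-0.58 to -0.55). Both transgenes contain unc-54 sequence, and reads from them could not be told apart from those of the gene itself. The other main myosin gene, myo-3, had 2689 in GMC101 and 2378 in CL2122. The gene mtl-2, whose promoter drives the marker, had 411 in GMC101 and 672 in CL2122. In bulk worms, fewer cells of a type and less RNA per cell cannot be told apart.

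The yolk protein genes were lower, and they gave the largest losses in counts. All 6 vit genes had log2 ratios below 0, with a median of -0.62 and only vit-3 called (16.7% beside 2.41% of all genes). It had 37130 normalized counts in GMC101 against 75347 in CL2122, a log2 ratio of -1.02 (-1.04 to -1.003), which was -0.99 and thus under the fold with total-count scaling, while vit-2 had 322890 in GMC101 and 351190 in CL2122. Germline markers went the other way by small amounts. Of 72 sperm genes, 68 were above 0, with a median log2 ratio of 0.27 and none called, and of 34 oocyte and eggshell genes 28 were above 0, with a median of 0.11. Neuronal markers had a median of 0.08 over 20 genes.

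At 24 h the strains differed more widely, with 772 genes (6.29%) higher and 1155 (9.41%) lower of 12268, and only part of the 8 h difference was found there. The times used separate samples, a sheet title in the study's supplement calls the 8 h table a second batch, and time therefore cannot be told apart from batch. Of the 91 genes higher at 8 h, 63 were at the minimum level at 24 h, and 37 of these (58.7%) were higher there, beside 6.84% of the genes at the minimum level at both times. Of the 279 lower genes, 179 were at the minimum level at 24 h and 67 (37.4%) were lower there, beside 3.98%. Within the chromosome V stretch the median log2 ratio at 24 h was -1.24 over 191 genes, of which 112 were lower and 8 higher.

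The hsp-16 genes differed less between the strains at 24 h, where hsp-16.41 had 4004 normalized counts in GMC101 against 2639 in CL2122, and hsp-16.2 had 3518 in GMC101 and 3203 in CL2122. The gene hsp-70 was still 2.38 higher on the log2 scale, with 4802 in GMC101 and 923 in CL2122. Of the 52 collagens lower at 8 h, 19 were at the minimum level at 24 h, where 3 were lower, 3 higher and 13 below 0, with a median log2 ratio of -0.14. The 114 collagens described at 8 h included 68 at the minimum level at 24 h, of which 35 were higher and 3 lower. Of all genes at the minimum level at both times, 6.84% were higher and 3.98% lower at 24 h. Yolk protein, sperm and body wall muscle genes had medians of 3.17, 2.39 and 0.91 at that time. Whether any of these differences between the times exceeds the variation between worm populations was not tested, since no replicate values were given.

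**Figure D5:**
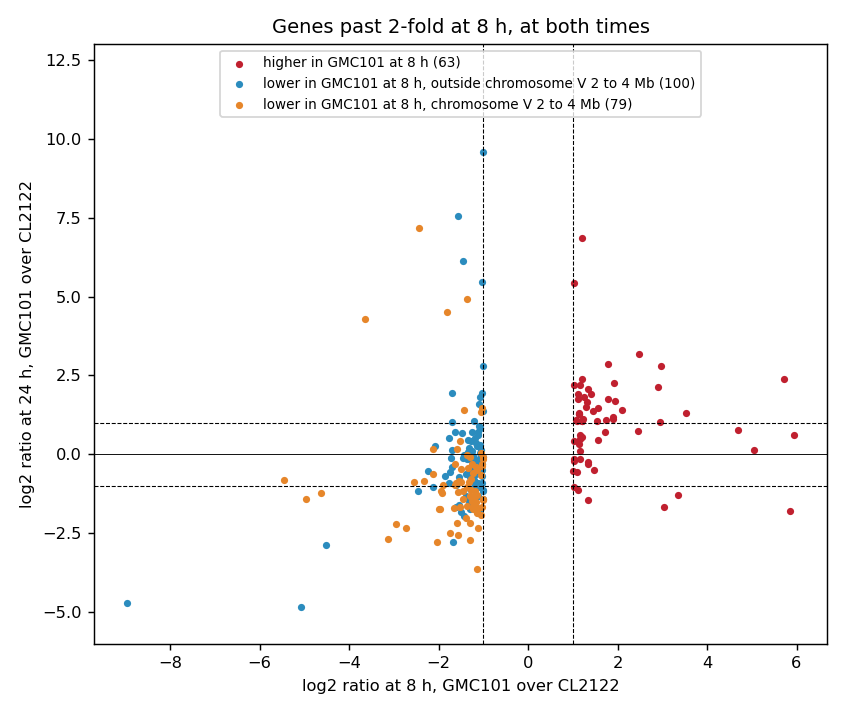
Log2 ratio at 24 h against log2 ratio at 8 h, GMC101 over CL2122, for the 242 genes past 2-fold at 8 h that were at the minimum level at both times; dashed lines mark 2-fold. Of the 63 genes higher at 8 h, 37 lie above the upper dashed line at 24 h and 6 below the lower one, and genes of the chromosome V stretch lie mostly in the lower left.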

How the data were processed

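RNA of whole worms was sequenced in read pairs, by the study's methods. The submitters' processing notes name HISAT2 2.05, StringTie 1.33 and DESeq2, with no role or order, and the genome build, read counter and strand setting are not given in the sources used here. The authors deposited 1 table per time, whose expression signal is a read count per gene and strain scaled to a common library size. Low values in it are whole multiples of the value of 1 read, 1.04 in GMC101 and 0.966 in CL2122, so whole reads were recovered for 100% of the values (within 0.01 read). Their scaling was that of TMM factors. The deposited columns of log2 fold changes, p-values and adjusted p-values hold the authors' own comparison and were not used.

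The log2 ratio of GMC101 over CL2122 was computed from the deposited signal for every gene, with a value of 0 set to 3 reads, which equals 0.146 CPM in GMC101 and 0.133 CPM in CL2122. Genes with a mean under 50 normalized counts, 7584 of 19177, were not called. Lists of genes (42, plus 9 added after seeing the values) were matched by symbol. The members and lists were chosen with earlier results of these data known. Genes named were drawn from the 15 largest and 15 smallest ratios and the 8 largest differences in counts each way. They were also drawn from up to 4 members of each list by ratio and 2 by level. Heat shock genes, the transgene promoters' genes and genes the paper names were eligible too. Not every gene of these classes is named. Others named, such as those of the right arm of chromosome V, were chosen after their values were seen. A planned promoter motif search was not run. Alternatives were other scalings, minimum levels, pseudocounts and folds, counting bounds, protein-coding genes only, leaving out the chromosome V stretch, and edgeR's exact test with an assumed coefficient of variation of 0.2 or 0.4, tested on simulated data. Coordinates are those of the deposited table. Of its identifiers, 19047 of 19177 are in Ensembl's WBcel235 annotation and overlap their position there. The software was edgeR 4.0.16 in R 4.3.3, and scipy 1.17.1, pandas 2.3.3, numpy 2.4.6 and matplotlib 3.10.9 in Python 3.11.15.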

Additional observations from a re-analysis of the deposited data

Results flagged for a closer look

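Of the genes at the minimum level at both times, 25 were past 2-fold in opposite directions at 8 h and 24 h. The values below are log2 ratios of GMC101 over CL2122, and the difference between the times was not tested, since each strain has 1 value per time and a sheet title in the study's supplement calls the 8 h table a second batch.

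In 19 genes GMC101 was lower at 8 h but higher at 24 h. Immune and lectin genes among them were clec-209 (-2.44 at 8 h, 7.17 at 24 h), F56A4.2 (-1.81 at 8 h, 4.52 at 24 h), T24B8.5 (-1.56 at 8 h, 7.56 at 24 h), clec-67 (-1.02 at 8 h, 1.93 at 24 h) and irg-4 (-1.01 at 8 h, 9.59 at 24 h). Cuticle genes were col-10 (-1.22 at 8 h, 1.06 at 24 h), col-144 (-1.09 at 8 h, 1.61 at 24 h), grl-4 (-1.08 at 8 h, 1.81 at 24 h) and col-95 (-1.0005 at 8 h, 2.80 at 24 h). Genes of yolk, transport and detoxification, with a transthyretin-related gene, were ttr-44 (-1.71 at 8 h, 1.02 at 24 h), gst-10 (-1.43 at 8 h, 1.39 at 24 h), folt-2 (-1.37 at 8 h, 4.92 at 24 h) and vit-3 (-1.02 at 8 h, 5.47 at 24 h). The others were Y45G12C.16 (-3.64 at 8 h, 4.30 at 24 h), D1086.3 (-1.70 at 8 h, 1.93 at 24 h), F46F2.3 (-1.46 at 8 h, 6.14 at 24 h), T20D4.7 (-1.06 at 8 h, 1.36 at 24 h), F54E2.1 (-1.03 at 8 h, 1.47 at 24 h) and rpa-4 (-1.01 at 8 h, 1.37 at 24 h). Of these, irg-4 stood at 180 normalized counts in GMC101 against 363 in CL2122 at 8 h, and 728 in GMC101 and 0.945, which is 1 read, in CL2122 at 24 h, so that its ratio at 24 h is poorly set. The gene clec-209 had 56.9 in GMC101 and 309 in CL2122 at 8 h, and 0 reads in CL2122 at 24 h, where its ratio rests on a floor of 3 reads. Several of the 19 were only just past 2-fold at 8 h, and vit-3 was under it with total-count scaling (-0.99). Of the 19, 12 lie outside the chromosome V stretch. Those inside it, where most genes were lower at 8 h, include clec-209, F56A4.2, Y45G12C.16, gst-10 and folt-2.

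In 6 genes GMC101 was higher at 8 h but lower at 24 h, cpr-1 (1.03 at 8 h, -1.02 at 24 h), cyp-13A12 (1.12 at 8 h, -1.14 at 24 h), rrf-2 (1.34 at 8 h, -1.45 at 24 h), ech-9 (3.03 at 8 h, -1.66 at 24 h), F44E5.5 (3.35 at 8 h, -1.29 at 24 h) and clec-70 (5.86 at 8 h, -1.79 at 24 h). Of these, clec-70 had 2 reads in CL2122 at 8 h, and F44E5.5 is a close copy of F44E5.4, so that its separate value is uncertain.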

How the results depend on the processing

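No paired analysis was possible because the columns carry no replicates, and for the same reason no replicate could be left out in turn. Counts are given as genes higher at 8 h, genes lower at 8 h, and genes past the fold the same way at 24 h, which were 91, 279 and 104. Protein-coding genes only, a pseudocount of 1 or 5, and scaling by totals or by the median of ratios kept all 3 counts within 1.5 times. When the minimum mean was 10 normalized counts they were 352, 618 and 265, at a minimum of 200 they were 37, 107 and 41, and with no minimum 1076, 1275 and 647. The share of higher genes among all calls was 24.6%, 36.3% at a mean of 10 and 45.8% with no minimum. With a 3-fold rule the counts were 27, 100 and 22, and with the near bound of the counting interval past 2-fold 41, 146 and 38. Without the chromosome V stretch they were 91, 188 and 61. The exact test of edgeR, run on 1 value per strain, needs an assumed coefficient of variation. It was run over all 19177 listed genes with no minimum level, and genes over 2-fold at an adjusted p under 0.05 were counted. It gave 45, 111 and 40 genes at a coefficient of 0.2, and 7, 9 and 3 at 0.4, so the number of genes depends on what variation between worm populations is assumed. The 7 higher genes at 0.4 were hsp-16.41, hsp-70, hsp-16.2, clec-70, hsp-16.49, F44E5.4 and F59B2.12, and the 9 lower were tag-18, pud-3, pud-4, B0393.8, F28H7.3, rol-1, ZC204.12, irg-1 and nspa-3. Of these, F59B2.12 and nspa-3 were below the minimum level and so are not among the 91 and 279.

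Of 61 single genes recomputed under both scalings and both pseudocounts, vit-3 alone changed its side of the fold, with total-count scaling. That scaling left 251 genes lower at 8 h, beside 279. Named genes close to the fold but outside the 61, such as fbn-1, col-95 and irg-4, were not checked singly. Among 51 list medians, 5 changed sign with total-count scaling, 2 with median-of-ratios scaling, 4 at a minimum of 10, 3 at a minimum of 200 and 2 with no minimum. All of these had medians within 0.2 of 0 but that of the arrestin domain genes, which was -0.43 at the minimum of 50 and 0.0006 at a minimum of 10. The collagen median was -0.57 at a minimum of 200 and -0.66 with no minimum. Medians moved by more than 0.05 and the semi-interquartile range of their list for 1 list at a minimum of 10, 5 at 200 (hsp-16, abu, pud, cuticlin and chemoreceptor genes), 1 with no minimum (nematode-specific peptides) and 1 with a pseudocount of 5 (pud). Total-count scaling moved the median log2 ratio of all genes to 0.04. Depth bears on the counts through genes of low level, since 42 of the 91 higher and 106 of the 279 lower genes had a mean under 100 normalized counts.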
